A study of Mus musculus with 9 samples.

Results

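Deletion of Runx1 was compared with the floxed control in KSL cells of mouse bone marrow. These cells were sorted for c-Kit and Sca-1 and against lineage antigens and IL7Ra, and include the haematopoietic stem cells and the earliest multipotent progenitors. The comparison rests on 6 of the 9 arrays of the series, the 3 labelled Runx1KO and the 3 labelled control, and was made over all 20380 probe sets that carry 1 gene symbol, which cover 12393 genes. Control mice were homozygous for floxed Runx1 without Mx-Cre. In Runx1KO mice these floxed alleles were combined with Mx-Cre. Both groups were C57BL/6 and were sampled 3 months after poly IC, so the controls had received the inducer too. Mx-Cre is driven by an interferon-responsive promoter and is active in tissues other than blood, which limits Runx1KO as a model of a change within KSL cells alone. The remaining 3 arrays came from cells transduced with RUNX1(41-214), a fragment of the protein, and were taken 4 months after transplantation. They entered only as part of the estimate of the spread and as values set beside the others. The labels call the 3 samples of each group biological replicates.

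Runx1 is the DNA-binding subunit of a core-binding factor. With its partner Cbfb it recognises a short T and G rich sequence in promoters and enhancers, and recruits activators at some genes and repressors at others. It is needed for the emergence of blood stem cells in the embryo and, in adult marrow, for the maturation of megakaryocytes and lymphocytes, and its loss in adult mice is known for an enlarged progenitor pool and a shortage of platelets. Levels are given throughout as log2 of the signal plus an offset of 16, after quantile normalization, and a difference of 1 on this scale is a 2-fold change for bright probe sets and an understated one for dim ones.

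The 6 arrays were alike in overall signal, with medians of 136.9 to 147.2, and no 2 arrays held identical values. The log2 ratio of 3′ to 5′ Gapdh control signal is a sign of RNA quality. It was highest in Runx1KO replicate 3 at 2.13 and control replicate 2 at 1.85, against 0.99 to 1.27 in the other 4. By Gapdh each group thus held 1 such array. The same ratio for actin was 1.98 in Runx1KO replicate 3 and 0.99 in control replicate 2, against 0.49 to 0.87 in the other 4. By actin only the Runx1KO array stood far apart. The sort was checked against its markers. Kit, by the brighter of its 2 probe sets, read 11.32, 11.11 and 11.01 in control and 11.74, 11.40 and 11.77 in Runx1KO arrays, higher without overlap in the latter but not past the threshold (0.49, 95% interval 0.18 to 0.80, adjusted p = 0.330). Ptprc, the pan-leukocyte antigen, lay between 11.83 and 12.36, while the lineage antigens Cd3e, Cd4 and Itgam lay between 4.38 and 5.94, near the bottom of the scale. Il7r, a gene for an antigen used to remove cells, was not low and varied widely, from 8.19 to 10.45 in control and from 8.68 to 10.17 in Runx1KO cells. Xist, by its brightest probe set, lay between 10.98 and 11.92 in all 6 arrays. The Y-linked genes were uneven: Eif2s3y read 8.49, 9.04 and 10.15 in control and 10.01, 9.87 and 9.90 in Runx1KO arrays, and Kdm5d 6.45, 6.88 and 8.07 against 8.45, 8.16 and 7.53. Control replicates 1 and 2 were the lowest in both. None of the 4 sex-linked genes measured passed, but their median difference was 0.73 (0.45 without control replicate 1 and 1.2 without control replicate 3), and the part of sex in the other results was not tested.

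Runx1 itself, the deleted gene, was measured by 5 probe sets and none passed the threshold. The brightest read 10.73, 9.88 and 10.58 in the control arrays and 11.20, 11.73 and 11.40 in the Runx1KO arrays, a difference of 1.05 ± 0.21 (SE; 95% interval 0.58 to 1.52; adjusted p = 0.102, limma). A second probe set read 8.89, 7.05 and 7.99 against 9.55, 9.35 and 9.77 (difference 1.58, adjusted p = 0.152), and another 6.94, 7.2 and 7.42 against 7.93, 8.57 and 8.15 (1.03, adjusted p = 0.140). In these 3 probe sets every Runx1KO array was above every control array, and the other 2 differed by 0.24 and 0.15 with overlapping arrays. Where the probes lie relative to the floxed segment is not given in the sources used here, so the signal does not test whether the gene was deleted. The 16 measured genes nearest to Runx1 on chromosome 16, 8 on each side, held 0 calls and ranged from -0.56 for Smim11 to 0.12 for Morc3. Of the 11 bright ones among them, 8 had an interval within a 2-fold change.

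**Figure D1:**
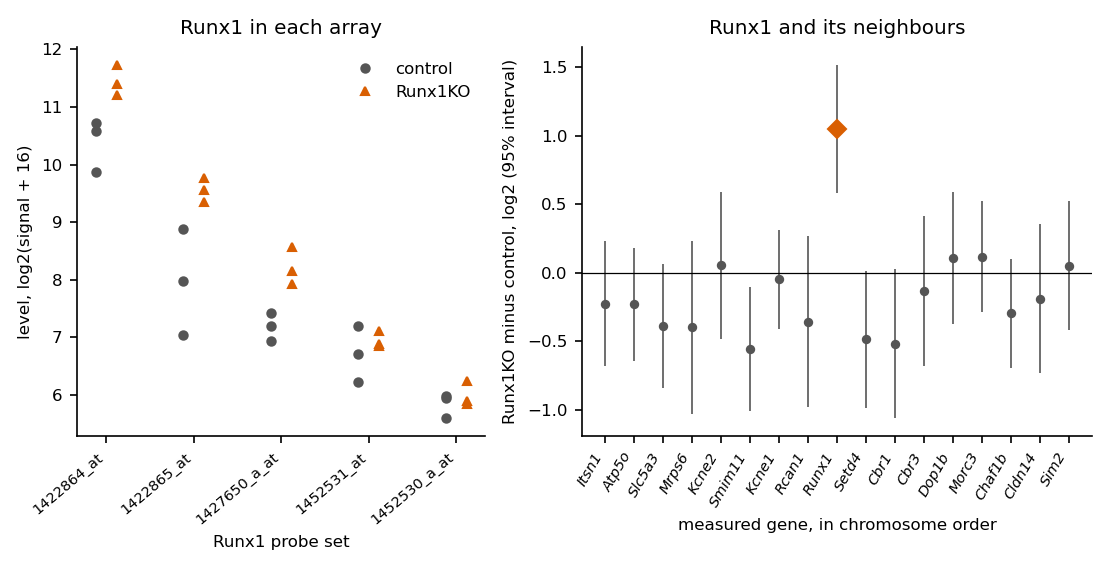
Left, level of each of the 5 Runx1 probe sets, log2(signal + 16), in the 3 control arrays (circles) and the 3 Runx1KO arrays (triangles). Right, Runx1KO minus control, log2, with its 95% interval for Runx1 (diamond, brightest probe set) and the 8 measured genes on each side of it in chromosome order; Runx1 stands at 1.05, above all 16 neighbours, and none of the 17 passed the threshold.

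Deletion changed a small set of genes, and most of them rose. Of 20380 probe sets, 35 passed an adjusted p of 0.05 (0.172%), 27 of them higher (0.132%) and 8 lower (0.0393%) in Runx1KO cells. They belong to 31 genes (0.250% of 12393), 23 that rose and 8 that fell. The rises spanned 0.99 to 3.04 on the log2 scale, which is 1.99- to 8.22-fold, and the falls 0.85 to 2.21 in size, which is 1.81- to 4.62-fold lower. In all 35 the Runx1KO and control arrays did not overlap, against 9.83% of all probe sets. The test was limma's moderated test with 1 estimate of the spread per probe set from all 9 arrays, adjusted by the Benjamini-Hochberg method. Array weights, larger for arrays nearer their group mean, were 2.14, 1.95 and 0.72 for the RUNX1(41-214) replicates. They were 0.71, 0.51 and 1.03 for control and 1.86, 0.68 and 0.70 for Runx1KO replicates. The shared spread therefore includes tighter arrays from outside the comparison, and their part in the number of calls was not tested. Fitted to the 6 arrays alone it called 7 probe sets, 1 each for Cpa3, Krt80, Tjp1, Treml1, Gimap4, Gp5 and Hmga2, with 0 lower. In that fit 1110 of 20380 had an unadjusted p under 0.05, where a share of 0.05 is due with no difference at all. Leaving out 1 array at a time gave 16 without either RUNX1(41-214) replicate 1 or 2, 18 without Runx1KO replicate 2, 19 without control replicate 3 or Runx1KO replicate 1 or 3, 23 without RUNX1(41-214) replicate 3, 27 without control replicate 1 and 46 without control replicate 2, and leaving out the 2 arrays with the highest Gapdh ratio gave 17.

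Not all of the 31 genes were equally firm. A total of 12 probe sets, those of Cpa3, Krt80, Tjp1, Treml1, Gp5, Itga2b, F2r, Slc24a3, 1 of Gimap4 and the 3 of Hmga2, passed whichever single array was left out. The genes Fscn1, Cd274, Mllt3 and Ecm1 failed whichever was left out, with the highest adjusted p at 0.144, 0.127, 0.199 and 0.178 in that order. Of the genes named below as having changed, each of the others failed in at least 1 of the 9 omissions. Their directions held in every omission.

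**Figure D2:**
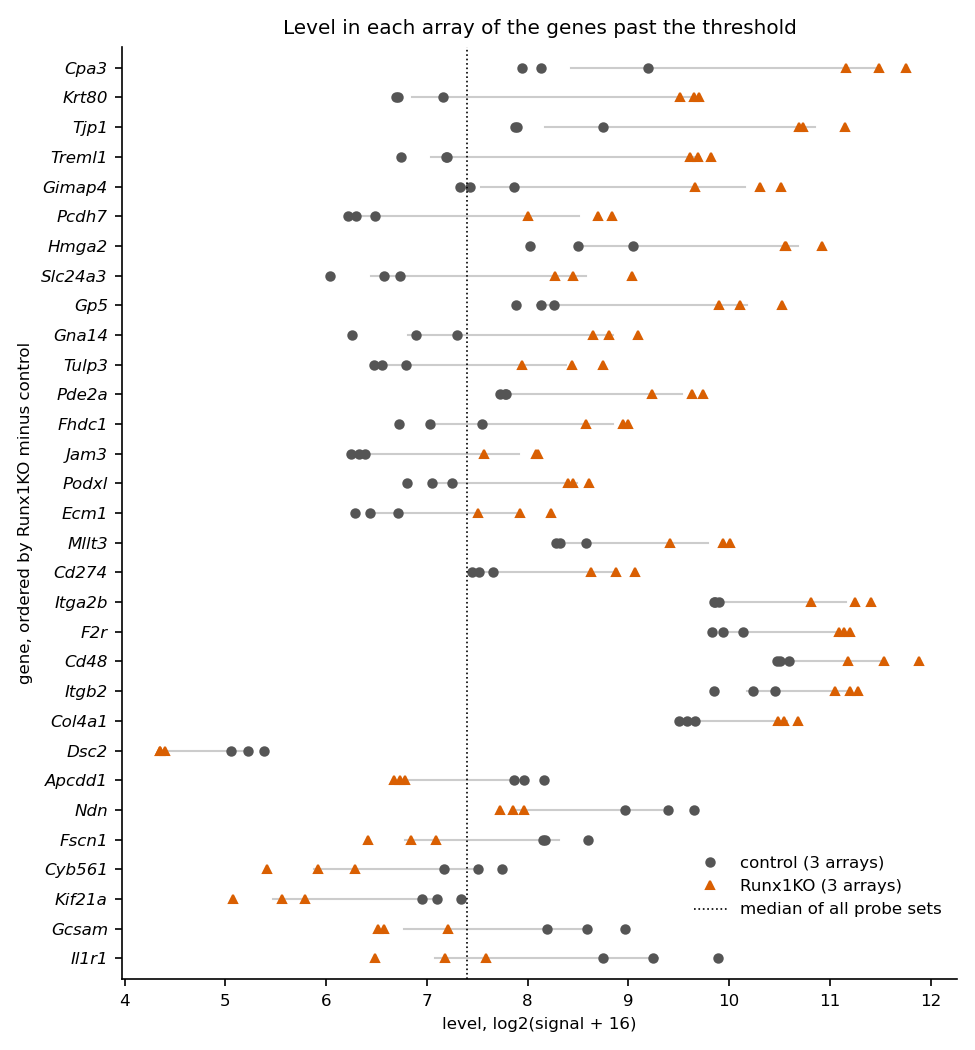
Level in each array, log2(signal + 16), of the 31 genes past the threshold, each by its probe set with the smallest p, ordered by Runx1KO minus control; circles are control arrays, triangles Runx1KO arrays, grey lines join the group means and the dotted line is the median of all probe sets, 7.4. No gene's groups overlap, and the widest gaps are those of Cpa3, Krt80, Tjp1 and Treml1.

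Some of the best known surface genes of megakaryocytes and platelets rose. Of 23 measured genes of a megakaryocyte and platelet list, 3 rose by their brightest probe set and 0 fell. F2r rose by its other probe set, and 20 of the 23 lay above control. The median difference of the list was 0.27 against -0.00 over all 12393 genes. It was 0.42 without control replicate 1, 0.22 without Runx1KO replicate 1 and 0.21 with an offset of 50. Among all genes 0.178% rose and 0.0403% fell by the brightest probe set (0.218% in either direction). Treml1, a receptor of platelet granules, read 6.74, 7.19 and 7.2 in control cells and 9.69, 9.82 and 9.62 in Runx1KO cells. The control arrays lay below the median of all probe sets and the Runx1KO arrays well above it, a 6.34-fold rise (2.67 ± 0.22 SE, adjusted p = 0.00076, limma). Gp5, glycoprotein V of the platelet surface, read 7.89, 8.14 and 8.26 against 9.90, 10.53 and 10.11, a 4.24-fold rise (2.08 ± 0.20, adjusted p = 0.00106). Itga2b, the CD41 chain of the fibrinogen receptor, read 9.86, 9.89 and 9.85 against 10.81, 11.41 and 11.25. Its control arrays were nearly equal, with an SD of 0.02, and it rose 2.44-fold (adjusted p = 0.00753). F2r, a thrombin receptor, read 10.14, 9.94 and 9.83 against 11.14, 11.09 and 11.20, a 2.25-fold rise (adjusted p = 0.00844). Its brighter probe set differed by 0.61 and did not pass (12.07, 11.38 and 11.98 against 12.24, 12.39 and 12.63, adjusted p = 0.292).

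The rest of the platelet list was uneven. The chemokine gene Ppbp read 7.38, 7.74 and 6.66 against 9.45, 8.73 and 8.01, a difference of 1.48 that did not pass, and Clec1b, Plek and Selp differed by 0.95, 0.62 and 0.56. Pf4, the other abundant platelet chemokine, differed by -0.07 (95% interval -0.66 to 0.52), Vwf by -0.12 (-0.92 to 0.67) and Gp9 by 0.08 (-0.55 to 0.72), each with overlapping arrays. Itgb3, which pairs with Itga2b on platelets, lay at 4.09 to 4.40 in all 6 arrays, at the bottom of the scale. The mean over the 23 genes was 8.53, 8.69 and 8.61 in the control arrays and 9.18, 9.19 and 9.10 in the Runx1KO arrays, without overlap. RNA was taken from a sorted pool, so a larger number of cells of a type and more RNA per cell cannot be told apart in any of these values.

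Cpa3, a carboxypeptidase stored in mast cell granules, had the largest rise. It read 8.13, 7.95 and 9.20 in the control arrays and 11.48, 11.16 and 11.75 in the Runx1KO arrays, 8.22-fold higher (3.04 ± 0.28 SE, 95% interval 2.42 to 3.66, adjusted p = 0.00106). It was the only 1 of 17 mast cell and basophil genes to pass. Of the other 16 none passed and 9 lay above control, and the median over the 17 was 0.11, or 0.03 without control replicate 1 or 2, 0.00 without Runx1KO replicate 1 and 0.05 without Runx1KO replicate 3. In 6 of the 17, Cpa3 among them, the arrays did not overlap, all of them higher (35.3%, against 10.5% of all genes in either direction). Hdc, which makes histamine, read 5.68, 4.47 and 6.56 against 8.58, 6.78 and 9.15, a difference of 2.6 that did not pass (adjusted p = 0.148). Fcer1a and Mcpt8 were lower by point estimate, at -0.88 and -0.87. The mean of the list over the 6 arrays, 7.28, 7.03 and 7.64 against 7.83, 7.33 and 7.72, overlapped between the groups, and its part in the Cpa3 result was not tested.

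The promoters of 4 of these genes are shown because their changes are among the steadiest and because the 250 bases before the start hold matches to the letters that RUNX or GATA proteins recognise. They are RefSeq sequences of build GRCm38.p6, written 5′ to 3′ on the gene's own strand: Gp5 at chr16:30310782-30311031 (minus strand), F2r at chr13:95618467-95618716 (minus), Cpa3 at chr3:20242182-20242431 (minus) and Gimap4 at chr6:48684328-48684577 (plus). Capitals mark the RUNX letters TGTGGT and TGCGGT and the GATA letters AGATAA and TGATAA, searched on both strands, so that their reverse complements are in capitals too.
Gp5: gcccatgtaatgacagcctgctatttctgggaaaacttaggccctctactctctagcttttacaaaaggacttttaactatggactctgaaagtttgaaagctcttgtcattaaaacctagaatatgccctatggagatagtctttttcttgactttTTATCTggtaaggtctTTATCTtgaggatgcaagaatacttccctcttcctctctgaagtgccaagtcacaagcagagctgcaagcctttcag
F2r: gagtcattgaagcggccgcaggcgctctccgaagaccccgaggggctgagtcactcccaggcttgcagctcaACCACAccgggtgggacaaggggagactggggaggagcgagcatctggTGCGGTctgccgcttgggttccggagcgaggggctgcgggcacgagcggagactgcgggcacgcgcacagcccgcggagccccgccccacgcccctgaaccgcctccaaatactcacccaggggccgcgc
Cpa3: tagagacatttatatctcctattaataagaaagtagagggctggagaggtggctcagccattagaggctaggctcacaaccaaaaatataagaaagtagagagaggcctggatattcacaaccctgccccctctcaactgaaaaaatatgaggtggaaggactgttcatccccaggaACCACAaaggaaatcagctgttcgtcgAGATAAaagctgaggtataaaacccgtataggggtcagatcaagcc
Gimap4: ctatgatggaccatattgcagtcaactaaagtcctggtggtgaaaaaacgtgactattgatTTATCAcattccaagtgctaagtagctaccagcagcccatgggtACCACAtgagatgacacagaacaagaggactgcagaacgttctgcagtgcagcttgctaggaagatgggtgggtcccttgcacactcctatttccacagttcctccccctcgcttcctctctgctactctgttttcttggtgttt
Gp5 holds 2 GATA matches and no RUNX match, F2r 2 RUNX matches, and Cpa3 and Gimap4 1 of each. RefSeq entries were found for 24 of the 31 genes, with 32 promoters. The RUNX letters occurred in 8 of the 32 (25%), against 6107 of 32851 promoters of all genes (18.6%), and the GATA letters in 7 of the 32 (21.9%) against 16.6%. Counted by gene, 7 of 19 genes that rose and 0 of 5 that fell had a RUNX match, against 20.9% of all genes, and the GATA letters gave the same 7 of 19 and 0 of 5, against 18.8%. The 7 genes with a RUNX match were F2r, Cpa3, Gimap4, Cd48, Cd274, Tulp3 and Pde2a. Neither Treml1 nor Itga2b had a match to either set. A match is only a run of letters, and the absence of one says only that these letters are not in this window.

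Several genes of cell adhesion, junctions and matrix rose. In the list of 41 integrin and niche adhesion genes 3 rose and 0 fell, with 25 above control and a median of 0.10. In the list of 35 cell junction genes 1 rose, 1 fell and 14 lay above control, with a median of -0.06. Tjp1, a scaffold beneath tight junctions, read 7.88, 7.90 and 8.75 against 10.73, 10.69 and 11.15, a 6.42-fold rise (2.68 ± 0.24 SE, adjusted p = 0.000988). Its lowest Runx1KO array was far above its highest control array. Jam3, a junctional adhesion molecule of platelets and endothelium, read 6.33, 6.39 and 6.25 against 7.56, 8.08 and 8.10, a 3.02-fold rise, although its dimmer probe set differed by 0.23. Itgb2, the CD18 chain of leukocyte integrins, read 10.46, 9.85 and 10.23 against 11.05, 11.28 and 11.20 and rose 2.00-fold (adjusted p = 0.0375). Without an overlap in either gene, the 2 differ in where they started: Jam3 lay below the median of all probe sets in control cells and Itgb2 far above it.

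The other surface and matrix genes that rose were of several kinds. Pcdh7, a protocadherin, read 6.30, 6.22 and 6.48 against 8.0, 8.70 and 8.84, a 4.52-fold rise, while a second probe set stayed near the bottom of the scale in all arrays. Podxl, a sialomucin of blood vessels and early blood progenitors, read 7.25, 7.05 and 6.8 against 8.45, 8.40 and 8.61, a 2.73-fold rise. Its dimmer probe set differed by 0.25 and did not pass. By the probe set that passed, both genes moved from below to above the median of all probe sets. Ecm1, a secreted matrix glycoprotein, read 6.43, 6.28 and 6.72 against 7.92, 7.50 and 8.23 (2.65-fold, adjusted p = 0.0495). Col4a1, a basement membrane collagen chain, rose by both of its probe sets, by 0.99 and 1.27, the first from 9.66, 9.59 and 9.50 to 10.49, 10.68 and 10.55. Its partner chain Col4a2 read 8.99, 9.10 and 8.19 against 9.95, 10.70 and 10.12, a difference of 1.5 that did not pass (adjusted p = 0.0816). None of the other 34 collagen genes passed either.

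Cd48, a SLAM-family antigen carried by most KSL cells other than long-term stem cells, read 10.59, 10.47 and 10.50 in control cells and 11.89, 11.18 and 11.54 in Runx1KO cells, a 2.02-fold rise (1.01 ± 0.16 SE, adjusted p = 0.0407). The 3 control arrays were close together and all Runx1KO arrays were higher. Cd274, which encodes the immune checkpoint ligand PD-L1, read 7.66, 7.51 and 7.45 against 8.63, 9.07 and 8.88, a 2.50-fold rise. Gimap4, a GTPase of lymphocytes, rose by both of its probe sets, from 7.86, 7.33 and 7.42 to 10.31, 10.52 and 9.66 by the brighter one (6.16-fold, 2.62 ± 0.24 SE, adjusted p = 0.000988). The other 4 Gimap genes lay above control without passing, among them Gimap3 at 7.0, 7.27 and 7.63 against 8.39, 9.88 and 9.15 (1.84, adjusted p = 0.12) and Gimap6 at a difference of 0.64. The mean of the 5 was 8.84, 8.77 and 8.57 in control and 9.81, 10.32 and 9.65 in Runx1KO arrays. Gimap genes are expressed mainly in the lymphoid lineage. The lists of B cell and of T and NK cell genes had 0 of 17 and 0 of 22 past the threshold. Their medians were 0.20, which changed sign under 2 alternatives, and -0.22.

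Among genes of chromatin and cell structure, Hmga2 and Krt80 rose most. Hmga2, an architectural chromatin protein prominent in fetal stem cells, passed with all 3 of its probe sets, at 2.26, 2.16 and 2.11. The brightest read 8.48, 8.01 and 9.04 against 10.52, 10.70 and 11.10, a 4.79-fold rise (adjusted p = 0.00603), and the third of them read 7.46, 7.75 and 7.87 against 9.92, 9.64 and 9.83. A list named for Polycomb, Trithorax and DNA methylation also counted this architectural protein, and the other 36 of its 37 genes did not pass. Mllt3, a reader of acylated histones that sustains stem cells, read 8.28, 8.57 and 8.32 against 9.41, 9.94 and 10.01 (2.64-fold, adjusted p = 0.0495). Krt80, a keratin, read 6.72, 6.69 and 7.16 against 9.51, 9.65 and 9.70, a 6.8-fold rise (2.76 ± 0.23 SE, adjusted p = 0.00076), and was the only 1 of 40 keratins to pass. Its control arrays lay below the median of all probe sets and its Runx1KO arrays far above.

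Genes of signalling, transport and the cytoskeleton completed the rises. Slc24a3, a sodium, calcium and potassium exchanger, read 6.58, 6.04 and 6.73 against 8.45, 8.27 and 9.03 (4.39-fold) and was the only 1 of 242 solute carriers to pass. Gna14, the alpha subunit of a G protein, read 6.26, 6.90 and 7.30 against 8.81, 8.65 and 9.10 (4.10-fold), and its dimmer probe set differed by 1.92 (adjusted p = 0.0674). Pde2a, a phosphodiesterase that degrades cyclic nucleotides, read 7.79, 7.73 and 7.77 against 9.23, 9.63 and 9.74 (3.41-fold). The control arrays of Pde2a were almost equal. Tulp3, a protein of ciliary transport, read 6.47, 6.55 and 6.79 against 7.94, 8.44 and 8.75 (3.42-fold), with a second, dim probe set at 0.17. Fhdc1, a formin that acts on actin and microtubules, read 6.72, 7.55 and 7.03 against 8.58, 9.0 and 8.94 (3.35-fold). In each of these 5 genes, by the probe set that passed, every Runx1KO array was above every control array.

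The 8 genes that fell were fewer and mostly dimmer, with 4 of their 8 probe sets above the median of all probe sets against 25 of 27 for the rises. Il1r1, the signalling receptor for interleukin-1, fell most: it read 9.89, 8.74 and 9.24 in control cells and 7.58, 6.49 and 7.18 in Runx1KO cells, 4.62-fold lower (-2.21 ± 0.36 SE, 95% interval -3.01 to -1.41, adjusted p = 0.0455). It was the only 1 of 47 cytokine and growth factor receptors past the threshold. Ndn, an imprinted growth suppressor of quiescent stem cells, fell by 1 of its 8 probe sets, from 8.96, 9.65 and 9.39 to 7.72, 7.96 and 7.85 (2.81-fold lower, adjusted p = 0.0495). A further 5 of its probe sets were lower without passing, the brightest at 10.34, 10.70 and 10.58 against 9.51, 9.60 and 9.56 (-0.99, adjusted p = 0.0816), and the remaining 2 lay near the bottom of the scale. Apcdd1, an inhibitor of Wnt signalling at the membrane, fell from 8.16, 7.87 and 7.96 to 6.78, 6.68 and 6.74 (2.40-fold lower). Its brightest probe set read 8.74, 8.40 and 9.29 against 7.24, 6.67 and 7.42 and narrowly missed (-1.70, adjusted p = 0.0526).

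Fscn1, which bundles actin, fell by 1 of 4 probe sets, from 8.15, 8.17 and 8.60 to 6.85, 6.42 and 7.09 (2.87-fold lower, adjusted p = 0.0375). The other 3, which include the brightest over all 9 arrays (6.88, 7.55 and 6.94 against 6.77, 6.99 and 6.96), differed by -0.22, -0.13 and 0.20, so the probe sets disagree. Gcsam, an adaptor known from germinal centre B cells, fell from 8.97, 8.59 and 8.20 to 7.21, 6.52 and 6.57 (3.53-fold lower), and Kif21a, a kinesin, from 7.10, 7.33 and 6.95 to 5.56, 5.79 and 5.08 (3.14-fold lower). Kif21a was the steadiest of the falls, lost only without Runx1KO replicate 1 among the single omissions (highest adjusted p 0.0579). Cyb561, an electron carrier of vesicle membranes, fell from 7.75, 7.17 and 7.51 to 6.29, 5.41 and 5.92 (3.03-fold lower). Dsc2, a desmosomal cadherin, read 5.06, 5.38 and 5.22 against 4.35, 4.40 and 4.35, near the bottom of the scale in both groups, where the offset compresses differences. Its second probe set, also near the bottom, differed by -0.10 with overlapping arrays. By the probe set that passed, every Runx1KO array was below every control array in each of these genes.

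A further layer of genes lay just outside the threshold. Foxo1, a transcription factor that guards stem cell quiescence, read 7.78, 7.61 and 7.21 against 9.12, 9.65 and 8.78 by 1 probe set (1.65, adjusted p = 0.0509), while its brightest differed by 0.59. Acvr1b, an activin receptor, read 10.75, 10.57 and 10.64 against 11.39, 11.33 and 11.36 (0.71, adjusted p = 0.0521). Both genes had arrays that did not overlap, and neither passed. Tek, the angiopoietin receptor of stem cells and endothelium, read 8.92, 8.46 and 9.09 against 9.73, 10.02 and 10.34 (1.21, adjusted p = 0.0674). Ccr9, a homing receptor of lymphoid progenitors, read 8.43, 7.73 and 8.67 against 6.83, 6.58 and 6.19 (-1.74, adjusted p = 0.0526), and Gja1, the connexin of gap junctions, read 8.70, 9.31 and 9.21 against 7.45, 6.83 and 7.84 (-1.70, adjusted p = 0.0649). The granzyme Gzmb differed by -1.26 (adjusted p = 0.0674). In all, 1334 of 20380 probe sets had an unadjusted p under 0.05, 702 higher and 632 lower. A share of 0.05 is due at this level with no difference at all, so the 1334 are not a count of changed probe sets. A difference of more than 2-fold was found in 265, of which 32 passed.

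**Figure D3:**
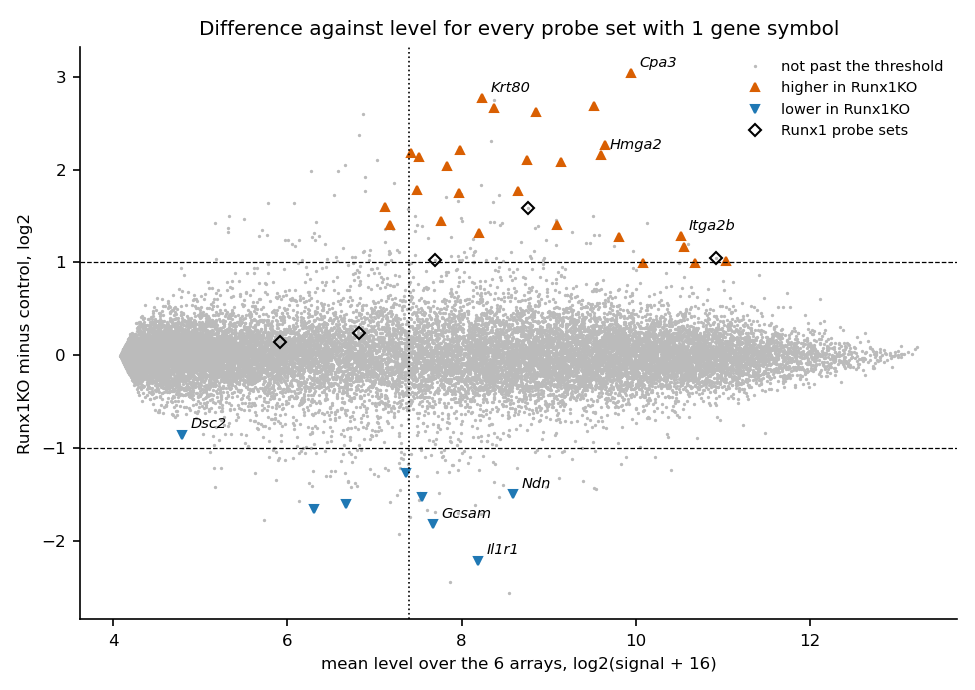
Difference between Runx1KO and control, log2, against the mean level over the 6 arrays for the 20380 probe sets; orange upward triangles are the 27 probe sets past the threshold and higher, blue downward ones the 8 past it and lower, diamonds the Runx1 probe sets, the dotted vertical line is the median level and dashed lines mark 2-fold. The cloud is centred on 0 with a median of -0.0017, and the called points lie above it far more often than below.

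Most genes of stem cell identity did not pass, and several lay close to control. Of 27 measured genes of an HSC-associated list 1 rose by its brightest probe set (Mllt3), 0 fell by theirs and 21 lay above control, with a median of 0.17. Ndn, also of this list, fell by another of its probe sets. Of the 23 bright ones, 15 had a 95% interval within a 2-fold change, or 65.2%, against 88.0% over all bright genes. Cd34, a sialomucin of progenitors, read 11.78 ± 0.18 in control and 11.81 ± 0.11 in Runx1KO cells (SD, n = 3 each), a difference of 0.03 (-0.22 to 0.27), and Procr, the protein C receptor of stem cells, differed by 0.05 (-0.31 to 0.41). The transcription factor genes Meis1, Hlf and Gata2 differed by 0.28, 0.18 and 0.17, with intervals that ended at 0.55, 0.42 and 0.37. These 5 genes therefore lay within a 2-fold change. The adhesion gene Esam (0.73, adjusted p = 0.192) and Slamf1, the CD150 antigen (0.93, adjusted p = 0.406), were higher by point estimate, and their intervals reached past 2-fold. The mean of the list was 9.57, 9.72 and 9.64 in control and 9.74, 9.96 and 9.95 in Runx1KO arrays.

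None of 44 transcription factors of blood formation passed, and 35 lay above control, with a median of 0.13. Of the 33 bright ones 27 had an interval within a 2-fold change (81.8%), a smaller share than the 88.0% of all bright genes. Tal1 read 11.22, 11.11 and 11.16 against 11.37, 11.30 and 11.55 (0.24), Lmo2 differed by 0.12 (-0.14 to 0.37), and Myb by 0.10 (-0.22 to 0.42) with its brightest probe set. Spi1 and Cebpa, factors of the myeloid lineages, differed by 0.11 and 0.04, but the interval of Spi1 ran from -0.73 to 0.95 and that of Cebpa from -0.60 to 0.68. Cbfb, the partner of Runx1, read 12.08, 11.66 and 11.88 against 12.01, 11.99 and 12.13, a difference of 0.17 (-0.09 to 0.43). Of 30 genes of the Runx family and its partners none passed, and Cbfa2t3, a corepressor, differed by 0.42 (adjusted p = 0.361). In a list of 34 reported Runx1 targets 2 rose (Hmga2 and Itga2b), 0 fell and 23 lay above control. Only 10 of the 20 bright ones had an interval within 2-fold (50%). This was the lowest share among the 39 lists with at least 15 bright genes. A wide interval can reach past 2-fold although the difference is small, so the share is not a count of changed genes. Of the 34 targets, 6 differed by more than 2-fold. Ncf1, a subunit of the phagocyte oxidase, read 8.59, 7.80 and 8.40 against 7.14, 6.42 and 6.79 (-1.48, adjusted p = 0.112), while Mpo, the neutrophil peroxidase, differed by 0.27.

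Receptors and pathways showed few calls. Among the 47 cytokine and growth factor receptors 29 lay above control with a median of 0.06. Of their 26 bright ones 16 had an interval within 2-fold (61.5%). Csf2rb, the shared receptor chain of GM-CSF and interleukin-3, read 8.37, 7.03 and 7.85 against 8.82, 9.29 and 9.40 (1.42, adjusted p = 0.146), its neighbour in sequence Csf2rb2 differed by 1.33, and Csf3r, the G-CSF receptor, read 10.51, 10.73 and 10.15 against 11.14, 11.45 and 10.96 (0.72, adjusted p = 0.219). The 2 Csf2rb genes are near-identical copies, whose probes may read each other's transcripts. Among 39 genes of the TGF-beta and BMP pathway none passed; Tgfb1 read 8.46, 8.21 and 8.38 against 9.98, 9.70 and 9.10 (1.24, adjusted p = 0.0742). The Notch (33 genes), Wnt (45), NF-kB (39) and JAK-STAT (28) lists held no call by the brightest probe set, with medians of 0.04, 0.02, 0.07 and 0.18, and so did 34 interferon-stimulated genes, with a median of 0.10. The interferon median turned to -0.03 without Runx1KO replicate 2, and the Notch and TGF-beta medians, both near 0, changed sign without quantile normalization. In 48 of the 65 lists no gene passed by any probe set, and in 50 none passed by its brightest, since Apcdd1 of the Wnt list and Ndn of the imprinted list passed only by another.

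No marker of other cell types passed in the lists of erythroid (15 genes), neutrophil (18), monocyte and macrophage (23), B cell (17), T and NK cell (22) and stromal and endothelial genes (24). Erythroid and neutrophil markers varied widely between arrays of the same group. The erythroid mean read 7.04, 8.40 and 7.78 in control and 8.0, 7.54 and 7.33 in Runx1KO arrays, and the erythroid factor Klf1 ran from 6.81 to 10.63 within the controls alone. Ngp and S100a8, granule proteins of neutrophils, stood at 10.17 and 8.83 in control replicate 1 and at 4.77 to 5.18 in the other 2 control arrays. The erythroid, neutrophil and monocyte medians (-0.14, 0.01 and 0.06) changed sign under several alternatives and carry no direction. In the T and NK list 17 of 22 genes lay below control, with a median of -0.22 and means of 6.01, 5.87 and 6.13 against 5.84, 5.65 and 5.57. Only 3 of its genes were bright, and the median was -0.10 without control replicate 2 and Runx1KO replicate 3. The stromal and endothelial means were close in all arrays, at 5.95, 5.95 and 5.92 against 5.88, 5.88 and 5.91.

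Among small families, every member lay on one side of control in the Gimap, Bex and guanylate-binding groups, as a description without a test. All 5 Gimap genes were above control, with a median of 0.64, and all 5 Bex genes below, with a median of -0.70. Bex6 read 10.70, 10.44 and 11.17 against 9.81, 9.24 and 9.98 (-1.09, adjusted p = 0.152), and Bex1 read 11.30, 11.11 and 11.54 against 10.54, 10.38 and 10.94 (-0.70, adjusted p = 0.787). In 4 of the 5 Bex genes the arrays did not overlap, against 10.5% of all genes. Bex3 was the exception, at -0.10. All 6 guanylate-binding protein genes were above control too, by 0.11 to 0.45, and none passed.

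**Figure D4:**
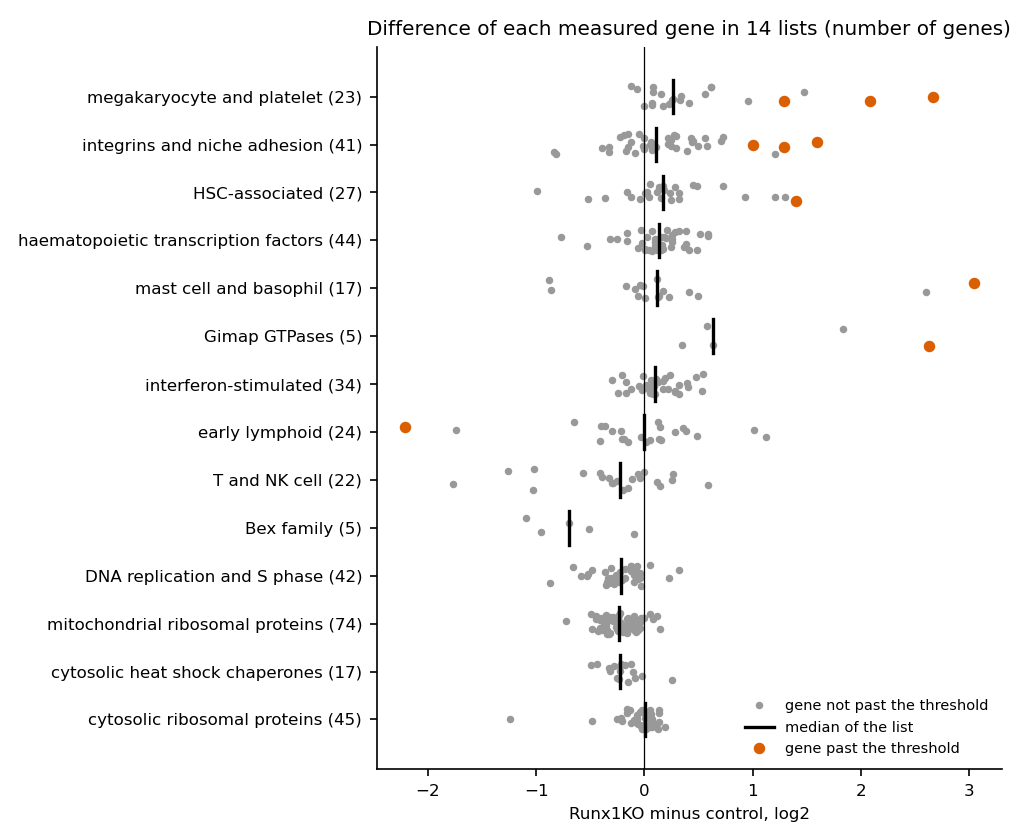
Difference between Runx1KO and control, log2, of every measured gene in 14 gene lists, by its brightest probe set. Large orange points passed the threshold, small grey points did not, the short bar is the list's median and the thin solid line is 0. The platelet and Gimap lists lie to the right and the Bex list to the left. The medians of the DNA replication, mitochondrial ribosomal and heat shock lists are -0.22, -0.23 and -0.22, and that of the cytosolic ribosomal list is 0.01.

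Most bright genes lay within a 2-fold change. Of 10190 bright probe sets, those above the median level of 7.4, 8740 had a 95% interval within a 2-fold change (85.8%) and 3824 within a 1.5-fold change (37.5%). Their median absolute difference was 0.163 and 95% of them differed by less than 0.597. Among lists of machinery shared by all cells the shares ran from nearly all to below that of bright genes in general (88.0%). The highest were 29 of 29 bright translation factors, 21 of 21 genes of the tricarboxylic acid cycle, 34 of 34 lysosomal and autophagy genes, 79 of 80 of the respiratory chain, 49 of 50 of ribosome biogenesis and 41 of 42 splicing factors. Proteasome subunits (89.5%), mitochondrial ribosomal proteins (89.2%) and aminoacyl-tRNA synthetases (88.9%) were near the general share. Heat shock chaperones (86.7%), cholesterol and fatty acid synthesis (86.4%), DNA repair (84.8%), DNA replication (82.5%) and redox defence (81.0%) were below it. Eef1a1, the elongation factor, read 13.11, 13.10 and 13.11 against 13.14, 13.14 and 13.15, and the ribosomal protein gene Rpl13a read 13.21, 13.11 and 13.15 against 13.17, 13.17 and 13.17. The other brightest genes with intervals within 1.5-fold were likewise mostly of the ribosome, such as Rpsa, Rps2 and Rplp0. At the very top of the scale quantile normalization gives every array the same values by rank, which narrows differences there.

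Proliferation genes showed small shifts in which no gene passed. Of 42 DNA replication genes 39 lay below control, with a median of -0.22. This median was -0.09 without control replicate 2, -0.14 and -0.13 without Runx1KO replicates 2 and 3, and -0.08 without control replicate 2 and Runx1KO replicate 3, the 2 arrays with the highest Gapdh ratio. Gins1, a subunit of the replicative helicase, read 10.08, 10.00 and 10.34 against 9.72, 9.63 and 9.53 (-0.52, adjusted p = 0.455), while the sliding clamp gene Pcna differed by -0.06. The list means of the groups overlapped, at 10.16, 10.44 and 10.36 against 10.26, 10.08 and 9.97. The 48 mitosis genes had a median of 0.08, which changed sign under 2 alternatives, and their mean ran from 8.84 to 9.78 within the controls. Mitochondrial ribosomal protein genes lay below control in 70 of 74, with a median of -0.23, but this median was -0.37 without control replicate 1, -0.08 without control replicate 2, -0.11 without Runx1KO replicate 3 and 0.01 without the last 2 together. Aminoacyl-tRNA synthetases lay below in 16 of 18 (median -0.17, or -0.10 without control replicate 3). Their means read 10.40, 10.48 and 10.53 against 10.34, 10.28 and 10.26 and did not overlap. Cytosolic heat shock chaperones lay below in 16 of 17 (-0.22, or -0.10 without control replicate 3 and -0.12 without Runx1KO replicate 3), and their means of 10.37, 10.31 and 10.86 against 10.56, 10.28 and 10.11 overlapped.

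**Figure D5:**
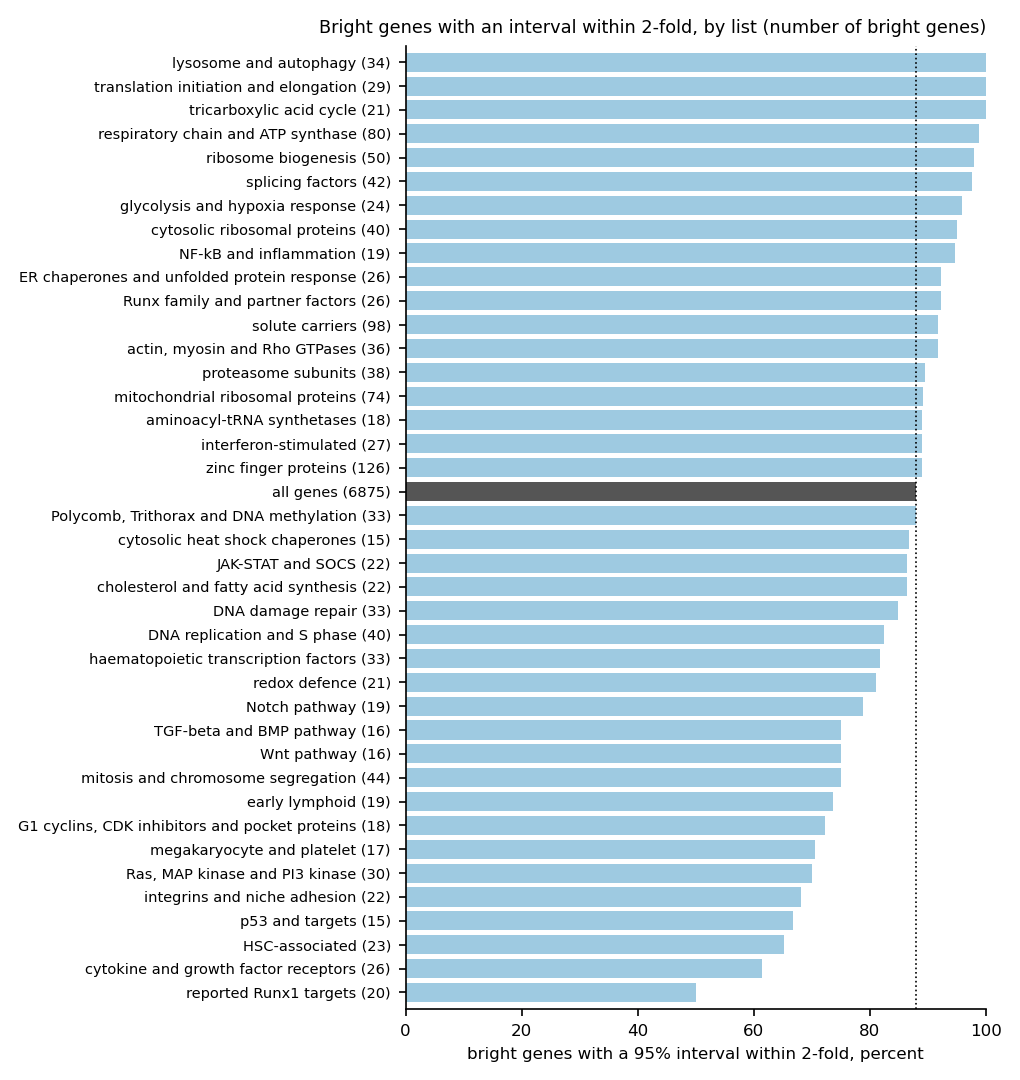
Percent of bright genes whose 95% interval of Runx1KO minus control lies within a 2-fold change, for the 39 lists with at least 15 bright genes and for all genes; each bar starts at 0 and the number of bright genes stands beside its name. The share runs from 50% for reported Runx1 targets to 100% for lists such as translation factors, with all bright genes at 88.0%.

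The RUNX1(41-214) arrays share the 3 control arrays with the deletion, so values of the 2 comparisons are set side by side and no likeness is drawn from them. In that comparison 640 probe sets (3.14%) passed. Cpa3 differed from control by 3.04 in Runx1KO and 3.77 in RUNX1(41-214) cells, Treml1 by 2.67 and 3.38, Hmga2 by 2.26 and 2.14, and Il1r1 by -2.21 and -1.80. Tulp3 differed by 1.78 in Runx1KO and 0.54 in RUNX1(41-214) cells, where it did not pass (adjusted p = 0.411), and Mllt3 by 1.40 and 0.32 (adjusted p = 0.623). The direct contrast of RUNX1(41-214) with Runx1KO, which called 227 probe sets (1.11%), did not pass for either, at -1.23 (adjusted p = 0.0627) and -1.08 (adjusted p = 0.0566). It passed for 5 of the 35 probe sets: Ecm1 (1.54 higher in RUNX1(41-214) cells, adjusted p = 0.00979), Gimap4 (1.24, adjusted p = 0.0305), Itga2b (0.74, adjusted p = 0.0476), Fscn1 (-2.11, adjusted p = 0.00174) and Ndn (-3.32, adjusted p = 5e-05). Retroviral transduction, transplantation and the time of sampling also separate these 2 groups, and their parts cannot be told apart.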

How the data were processed

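RNA from sorted KSL cells was measured on Affymetrix mouse arrays after biotin labelling by a double-cycle amplification, per the labels' protocols. The deposited values are signal intensities on a linear scale per probe set, and how the authors summarised the probes is not given in the sources used here. From 22690 probe sets 64 controls were set aside, the other 22626 were converted to log2(signal + 16) and quantile normalized over the 9 arrays, and the 20380 with 1 gene symbol in the platform table were kept (1555 carry none and 691 several). Group means were estimated by limma 3.58.1 (R 4.3.3) from the 9 arrays jointly, using lmFit and then eBayes with a variance trend (6 residual and 5.31 prior degrees of freedom). The tests were two-sided, with Benjamini-Hochberg adjustment over the 20380. Unlike probe sets of the same gene were fitted separately, and in lists a gene is represented by its brightest probe set over the 9 arrays. Likeness was read from 95% intervals of bright probe sets, those above the median level. The offset understates changes of dim genes. Precision is limited by the small number of arrays, and standard errors of a difference had a median of 0.212. Alternatives changed 1 choice at a time.

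The comparison, its genes and the 65 gene lists were chosen with earlier results of these data known, so list counts are descriptions and support nothing on their own. The rule for names took Runx1, every gene past the threshold, up to 4 called members of each list (or the 2 with the smallest p), the 3 brightest members of each list, the 20 brightest genes within 1.5-fold, the 20 with the smallest p beyond the threshold and the 8 measured genes on each side of Runx1. Other list members named were chosen after their values were seen. Replicate numbers were not used to pair the samples. Residuals of same-numbered control and Runx1KO arrays correlated at 0.054, 0.366 and 0.413, and those of unlike numbers at -0.457 to 0.136. With 3 arrays a group these correlations cannot settle whether the numbers mark pairs.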

Additional observations from a re-analysis of the deposited data

How the results depend on the processing

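The 35 probe sets (27 higher, 8 lower, 31 genes) were recounted under 21 alternatives, chosen with earlier results of these data known. The 6 arrays alone gave 7 (7 higher, 0 lower, 7 genes), and a minimum fold of 1.2 gave 19 (1 lower, 16 genes). The count of lower probe sets was 4 with an offset of 1 or with array weights, 22 with an offset of 50, 14 with 1 probe set per gene and 14 without a variance trend. Keeping only probe sets above the median gave 52, 46 of them higher. Fewer arrays entered in the first, and fewer probe sets in the last and with 1 probe set per gene. The minimum fold asks for a difference beyond that fold, which is a stricter test. The cause of these moves was not tested otherwise. Omitting single arrays gave 16 to 46 probe sets, 15 to 27 higher, 1 to 19 lower and 14 to 38 genes. Omitting control replicate 2 and Runx1KO replicate 3 together gave 17 (11 higher, 13 genes, 7 of them as reported). With the replicate block the count was 41 (30 higher, 11 lower, 37 genes, 25 of them as reported). Whether the numbers mark pairs was not settled. Control replicate 1 correlated better with Runx1KO replicate 3 than with replicate 1, but control replicates 2 and 3 correlated best with their own number. Called under every setting were 6 probe sets, those of Tjp1, Krt80, Gp5, Gimap4, Cpa3 and Treml1. The share of bright probe sets or genes with an interval within 2-fold ran from 75.8% to 94.5%, with bright set anew in each setting. The highest came from keeping only probe sets above the median, whose bright ones are a brighter set than as reported. No such share was computed for the minimum fold. Runx1 by its brightest probe set stayed at 0.79 to 1.21 and never passed, and a dim probe set of it (0.24 as reported) ranged from -0.0029 without control replicate 1 to 0.48 without control replicate 3. Of 1365 list medians 12 moved by more than the median standard error of the list's own genes. This is a loose bar for a median over many genes. The erythroid median changed sign in 4 alternatives and the neutrophil median in 5. With 3 arrays a group, only 3 of the 35 probe sets past the threshold differed by less than 2-fold, and differences of dim genes are compressed.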

Other observations

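Some of the widest differences did not pass the threshold. The genes named here were chosen after their values were seen. Fcgr3, an Fc receptor of myeloid and mast cells, read 7.75, 5.53 and 7.71 in control and 9.90, 9.04 and 10.31 in Runx1KO cells (difference 2.75 ± 0.52 SE, adjusted p = 0.0742, limma). Shisa2, an inhibitor of Wnt and FGF receptor maturation, read 6.32, 4.55 and 6.05 against 7.57, 7.72 and 8.73 (2.37, adjusted p = 0.0816). Ifi209, an interferon-inducible gene, read 7.11, 6.33 and 8.12 against 8.79, 10.01 and 9.68 (2.31, adjusted p = 0.0816). In these 3 genes the groups did not overlap. F13a1, the coagulation factor subunit of platelets and macrophages, differed by 2.23 with overlapping arrays (adjusted p = 0.512). On the other side, Chdh, a choline dehydrogenase, read 9.84, 8.76 and 10.87 against 7.62, 6.20 and 7.98 (-2.56, adjusted p = 0.106), and Ddx4, a germ cell RNA helicase, read 9.37, 9.16 and 8.75 against 7.55, 5.94 and 6.46 (-2.44, adjusted p = 0.0864). Bcl2, a survival gene, read 8.62, 8.07 and 8.34 against 7.19, 7.14 and 6.94 (-1.25, adjusted p = 0.319), again without overlap.

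The 31 genes are scattered over 17 chromosomes, with at most 3 on any. The only near neighbours among them are Ndn, which fell, and Tjp1, which rose, 13 places apart in the order of measured genes on chromosome 7. Of 2246 probe sets with no symbol or several symbols, 0 passed in a fit of all 22626 probe sets, in which 31 passed.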
